A study of Mus musculus with 5 samples.

Results

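The genes described here are 10 markers of injured, dedifferentiated or incompletely repaired kidney tubule: Havcr1, Lcn2, Clu, Krt8, Krt18, Krt20, Vcam1, Sox9, Cdkn1a and Gdf15. They were chosen by gene symbol from a list of known markers, and all 10 were found among the 32285 genes of the count matrix. Kidneys came from young adult male C57BL/6J mice after sham surgery or after unilateral ischemia-reperfusion (UIR), in which the left renal pedicle is clamped and released, and were taken on day 1, day 3, day 14 or day 28 after UIR. Each condition was 1 sample from 3 mice, and the study's methods also give a larger number of matrices than the 5 libraries seen here, so the number of mice behind each library is not settled here. The matrix separates 5 libraries by a number at the end of each barcode, and no label assigns such a number to sham or to a day. Libraries are therefore named by number, values are given in each of them, and no test between conditions was made. The labels also call the cells goblet cells, whereas 80.0% of the cells carried proximal tubule markers.

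After ischemia, cells of the proximal tubule, which reabsorb most of the filtered solutes, lose their transporters and switch on genes of an immature, motile epithelium. Most are known to regain the mature state, while some keep an inflammatory and profibrotic program that is called failed repair. Havcr1 encodes KIM-1, a surface receptor that lets tubule cells engulf dying neighbours. Lcn2 encodes the iron carrier NGAL, and Clu the secreted chaperone clusterin. Krt8 and Krt18 encode paired simple-epithelial keratins and Krt20 a keratin of intestine and urothelium. Vcam1, an adhesion molecule for leukocytes, is widely used to mark failed repair. Sox9 is a transcription factor of nephron development and tubule regeneration. Cdkn1a encodes the cell-cycle inhibitor p21, a direct target of p53, and Gdf15 encodes a secreted stress cytokine that is also induced by p53.

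In GRCm38 with GENCODE annotation, Havcr1 spans chr11:46735080-46779578 on the plus strand, and Lcn2 spans chr2:32384633-32388252 on the minus strand. Krt8 (chr15:101996698-102004482, minus strand) and Krt18 (chr15:102028180-102032027, plus strand) are neighbours, and Krt20 lies at chr11:99428403-99438150 on the minus strand. Vcam1 was placed at chr3:116109949-116129688 (minus), Clu at chr14:65968483-65981547 (plus) and Sox9 at chr11:112782224-112787760 (plus). Cdkn1a lies at chr17:29090976-29100727 on the plus strand and Gdf15 at chr8:70629393-70632456 on the minus strand. All 10 are protein-coding genes, and none overlaps another annotated gene on its own strand.

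RefSeq promoter windows were matched for 7 of the 10 genes. The 3 stretches below run from 250 to 21 bases before the annotated start (230 bases, GRCm38.p6, printed 5′ to 3′ on the gene's strand) and are shown because they held a match of a searched motif and at most 30 bases of an annotated exon. Such a match was found in 5 of the 11 windows of these 7 genes, and the share of all promoters with any such match was not taken. The matches not shown were of the GC box, in Lcn2 and in a second window of Cdkn1a, and the windows of Havcr1, Krt8 and Gdf15 held none. Capitals mark the letters of a searched motif.
Cdkn1a, chr17:29090729-29090958, plus strand: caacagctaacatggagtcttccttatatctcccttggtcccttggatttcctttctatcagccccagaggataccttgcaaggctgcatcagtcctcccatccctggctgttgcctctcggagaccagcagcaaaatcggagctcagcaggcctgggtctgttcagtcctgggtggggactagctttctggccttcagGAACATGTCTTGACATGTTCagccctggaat
Krt18, chr15:102027966-102028195, plus strand: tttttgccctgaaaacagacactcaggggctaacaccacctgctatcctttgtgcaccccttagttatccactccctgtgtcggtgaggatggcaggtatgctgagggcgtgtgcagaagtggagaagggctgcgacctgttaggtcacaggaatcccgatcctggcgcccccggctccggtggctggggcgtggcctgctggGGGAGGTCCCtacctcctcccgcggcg
Krt20, chr11:99438174-99438403, minus strand: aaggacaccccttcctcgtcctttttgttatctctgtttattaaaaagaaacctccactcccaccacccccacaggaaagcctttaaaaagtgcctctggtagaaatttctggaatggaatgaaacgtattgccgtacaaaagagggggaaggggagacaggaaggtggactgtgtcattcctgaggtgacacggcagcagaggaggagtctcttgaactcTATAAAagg
Both strands were searched for TATAAA (the TATA box), for TGANTCA (bound by AP-1), for GGGCGG (the GC box), and for the NF-kB motif and the 20-base p53 motif with at most 1 mismatch, and the last motif was added after the sequence had been seen. The p53 motif was found in the Cdkn1a stretch and in 25 of 32851 promoter stretches of the same length (0.0761%). The Krt18 stretch held the NF-kB motif, as did 6.68% of all, and the Krt20 stretch held TATAAA, as did 11.8% of all. The GC box, matched in windows of Lcn2 and Cdkn1a that are not shown, was found in 29.8% of all. Such a match is a match of letters only.

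After cell calling, 57540 cells were kept, with 8230 to 18964 cells and medians of 4038 to 5348.5 unique molecular identifiers (UMIs) per cell in the 5 libraries. Cells were sorted into classes by fixed lists of marker genes, none of which is one of the 10 genes. Of the cells, 46054 passed the proximal tubule gate and 1349 were tubule cells that passed no segment gate although they carried general tubule markers such as Pax8 and Epcam. These are called segment-unassigned tubule cells below, and 204, 218, 837, 66 and 24 of them came from libraries 1 to 5. Their summed proximal markers made 11.5 of 10000 UMIs against 152 in proximal tubule-gated cells, and they also held thick ascending limb markers (8.61, against 130 in the gated cells of that segment) and distal tubule markers (5.47, against 83.2). Their proximal level was within that of leukocyte classes (8.70 in T and NK-gated and 14.0 in neutrophil-gated cells). Those 2 classes held less of the thick ascending limb (0.466 and 1.02) and distal markers (0.186 and 0.349). Pooled segment-unassigned cells thus held thick ascending limb and distal markers above these leukocyte levels, and proximal markers within them. Levels are UMIs summed over the cells of a class and scaled to 1000000 UMIs (CPM), with an exact Poisson 95% interval. All intervals reflect counting error and leave out the spread between mice, and fewer cells with RNA and less RNA per cell cannot be told apart in such a sum.

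Across classes of at least 50 cells, the 10 genes did not share a site of highest level. For 4 of the 10 the highest class was a tubule class, beside 35.5% of the 12730 genes compared. Havcr1 was highest in segment-unassigned tubule cells, at 194 CPM (95% interval 186 to 202), against 24.0 CPM (23.4 to 24.6) in proximal tubule-gated cells and 18.1 CPM in thick ascending limb-gated cells. Sox9 was highest in the same cells, at 135 CPM (128 to 142), followed among classes of this size by distal convoluted and connecting tubule-gated cells at 105 CPM and collecting duct principal-gated cells at 76.5 CPM. Lcn2 and Gdf15 were highest in collecting duct principal-gated cells, at 3578 CPM (3497 to 3661) and 1164 CPM (1118 to 1211).

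Lcn2, which is also a granule protein of neutrophils, stood at 2472 CPM in thick ascending limb-gated cells and at 1496 CPM in neutrophil-gated cells. Segment-unassigned cells held 1026 CPM and proximal tubule-gated cells 20.3 CPM. Thick ascending limb-gated cells were above segment-unassigned cells in 5 of 5 libraries. Neutrophil-gated cells, at 854, 874, 2575 and 499 CPM in libraries 1 to 4, were above them in libraries 1 and 3 and below them in libraries 2 and 4. Gdf15 was the exception among the 10 genes in that proximal tubule-gated cells, at 518 CPM, lay above segment-unassigned cells, at 409 CPM, in the pool. This direction turned in libraries 1, 2 and 5, and the log2 ratio of segment-unassigned to proximal tubule-gated cells went from -0.34 to 0.47 with gates 2 times as strict and to 0.20 as a mean over libraries. Only 11 cells were thin limb-gated, too few for the ranking. They held Havcr1 at 581 CPM, from 95 UMIs. Also outside the ranking were 2554 unclassified cells, which passed no gate and had fewer than 2 general tubule markers detected. These unclassified cells held Havcr1 at 61.8 CPM, Lcn2 at 391 CPM and Clu at 979 CPM. Their median depth was 1271.5 UMIs, against 6470 in segment-unassigned cells, and the part of depth in this division was not tested.

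The keratins and Clu were highest in urothelium-gated cells, the lining of the renal pelvis. Krt18 reached 4661 CPM there, 1541 CPM in collecting duct principal-gated cells, 359 CPM in segment-unassigned cells and 13.9 CPM in proximal tubule-gated cells. Krt8 was at 3998 CPM, 1406 CPM, 963 CPM and 372 CPM in the same classes. Krt20 was at 47.5 CPM (37.7 to 59.0) in urothelium-gated cells and at 35.2 CPM (31.9 to 38.8) in segment-unassigned cells. These intervals meet, while thick ascending limb-gated and collecting duct principal-gated cells held 0.760 and 0.484 CPM from 4 UMIs and 1 UMI. Clu stood at 16583 CPM in urothelium-gated cells, 14679.7 CPM in collecting duct principal-gated cells, 4332 CPM in segment-unassigned cells and 102 CPM in proximal tubule-gated cells. Of the 162 urothelium-gated cells, 119 came from library 3, and without that library the class fell to 43 cells, too few for the ranking, and 9 of the 10 genes were highest in a tubule class, beside 40.1% of the genes compared. In those 43 cells Clu was at 4226 CPM, below the 9734 CPM of collecting duct principal-gated cells. Krt18 (4454 against 1597 CPM) and Krt8 (2692 against 1388 CPM) were still above collecting duct principal-gated cells. Krt20, at 133 CPM, was still above segment-unassigned cells (38.6 CPM). The count of 9 thus rests in part on urothelium-gated cells leaving the ranking. In library 3 itself, urothelium-gated cells held Krt20 at 13.9 CPM, below the 32.4 CPM of segment-unassigned cells.

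In the pool, Vcam1 and Cdkn1a were highest outside the epithelium, and this order did not hold in every library. Vcam1 was at 304 CPM (255 to 360) in fibroblast and pericyte-gated cells and at 260 CPM (251 to 269) in segment-unassigned cells, whose intervals meet. Segment-unassigned cells were the higher in library 1 (556 against 352 CPM) and in library 2 (648 against 256 CPM), and no other library held enough fibroblast and pericyte-gated cells for a value. Vcam1 was at 112 CPM in endothelial-gated cells, at 7.36 CPM in proximal tubule-gated cells and at 1.33 CPM in thick ascending limb-gated cells. In urothelium-gated cells 0 Vcam1 UMIs were counted, which allows up to 2.16 CPM. Cdkn1a was at 1611 CPM in endothelial-gated cells, at 606 CPM in neutrophil-gated cells and at 590.4 CPM in monocyte and macrophage-gated cells, against 261 CPM in segment-unassigned cells and 33.1 CPM in proximal tubule-gated cells. Endothelial-gated cells held 2193, 2024 and 477 CPM in libraries 1 to 3. In library 3 monocyte and macrophage-gated cells were at 512 CPM, and these intervals meet. Segment-unassigned cells were above neutrophil-gated cells in library 3 (216 against 78.2 CPM) and library 4 (602 against 561 CPM), and above monocyte and macrophage-gated cells in library 4 (331 CPM).

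**Figure D1:**
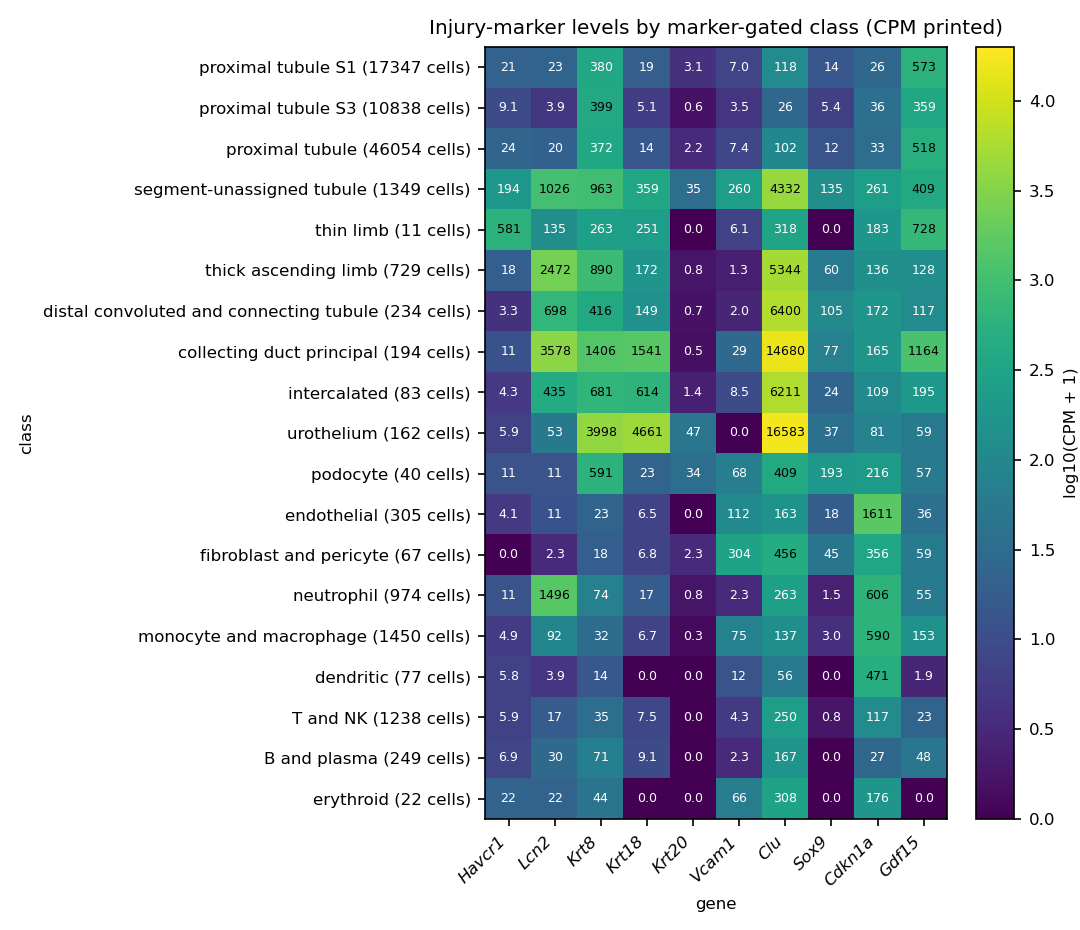
Level of each gene (columns) in each marker-gated class (rows, with the number of cells), as CPM summed over all 5 libraries; colour is log10(CPM + 1) and the CPM is printed in each field. Havcr1 and Sox9 peak in the segment-unassigned tubule row among classes of at least 50 cells (194 and 135 CPM), while Krt8, Krt18, Krt20 and Clu peak in the urothelium row.

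Within proximal tubule-gated cells, most of the markers differed widely between libraries. For 7 of the 10 genes the highest library was at least 4-fold above the lowest, beside 3.46% of the 7434 genes at 10 CPM or more in these cells. Krt20 (2.24 CPM) and Vcam1 (7.36 CPM) are among the 7 but lie below that level, so the share was not taken over genes as low as these. Havcr1 was at 8.28, 20.4, 59.9, 13.2 and 0.746 CPM in libraries 1 to 5, a spread of 80.2-fold that fell to 7.23-fold without library 5. Without that library 5 genes spread at least 4-fold, beside 2.44% of the genes compared, and Krt18 and Sox9 no longer did. Lcn2 was at 6.93, 6.39, 63.3, 4.50 and 0.0202 CPM, the last from 1 UMI. Clu was at 41.0, 21.2, 311, 28.8 and 9.38 CPM. Library 3 was thus the highest and library 5 the lowest for all 3 genes.

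The other genes did not follow 1 order. Krt20 (0.610, 1.58, 5.76, 1.34 and 0.181 CPM) and Krt18 (16.7, 9.75, 24.1, 8.97 and 5.32 CPM) were also highest in library 3. Sox9 was at 9.91, 14.8, 18.9, 13.2 and 0.585 CPM, so libraries 1 to 4 lay close together and library 5 was far below them. Vcam1 was at 9.91, 22.0, 2.14, 3.77 and 0.363 CPM, highest in library 2 and low in library 3. Krt8 was at 584, 505, 319, 229 and 244 CPM and Cdkn1a at 44.2, 42.0, 23.4, 39.5 and 21.5 CPM, both within 4-fold. Gdf15 was at 341, 282, 612, 962 and 375 CPM, highest in library 4.

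RNA in barcodes at ambient ranks moved with part of this pattern. The deepest of these barcodes held 489 UMIs in library 3 and 85 to 225 UMIs in the other libraries. Whether some of them were shallow cells was not tested. Barcodes at ambient ranks held Havcr1 at 3.71, 23.4, 93.1, 12.6 and 0.636 CPM in libraries 1 to 5, Clu at 122, 282, 876, 145 and 49.7 CPM, and Lcn2 at 24.7, 84.5, 168, 22.0 and 2.38 CPM. In library 3 these were above the proximal tubule-gated levels of all 3 genes, and Clu and Lcn2 were above them in every library. Ambient Vcam1, at 19.5, 36.0, 3.37, 7.91 and 1.11 CPM, and ambient Krt18 were also above the proximal tubule-gated level in every library. T and NK-gated cells held Clu at 1441 CPM in library 3, against at most 30.5 CPM in the other libraries. Havcr1, which is also known as TIM-1 of activated T cells, was at 30.02 CPM in them in library 3 and at most at 3.87 CPM in the others. Krt8 and Gdf15 in proximal tubule-gated cells were above ambient in every library, Gdf15 at 962 against 464 CPM in library 4. The part of ambient RNA in the library differences was not tested. With ambient UMIs taken off, the count of genes spread at least 4-fold was 7. No share of all genes was taken after that step, so nothing about ambient RNA is read from this count.

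**Figure D2:**
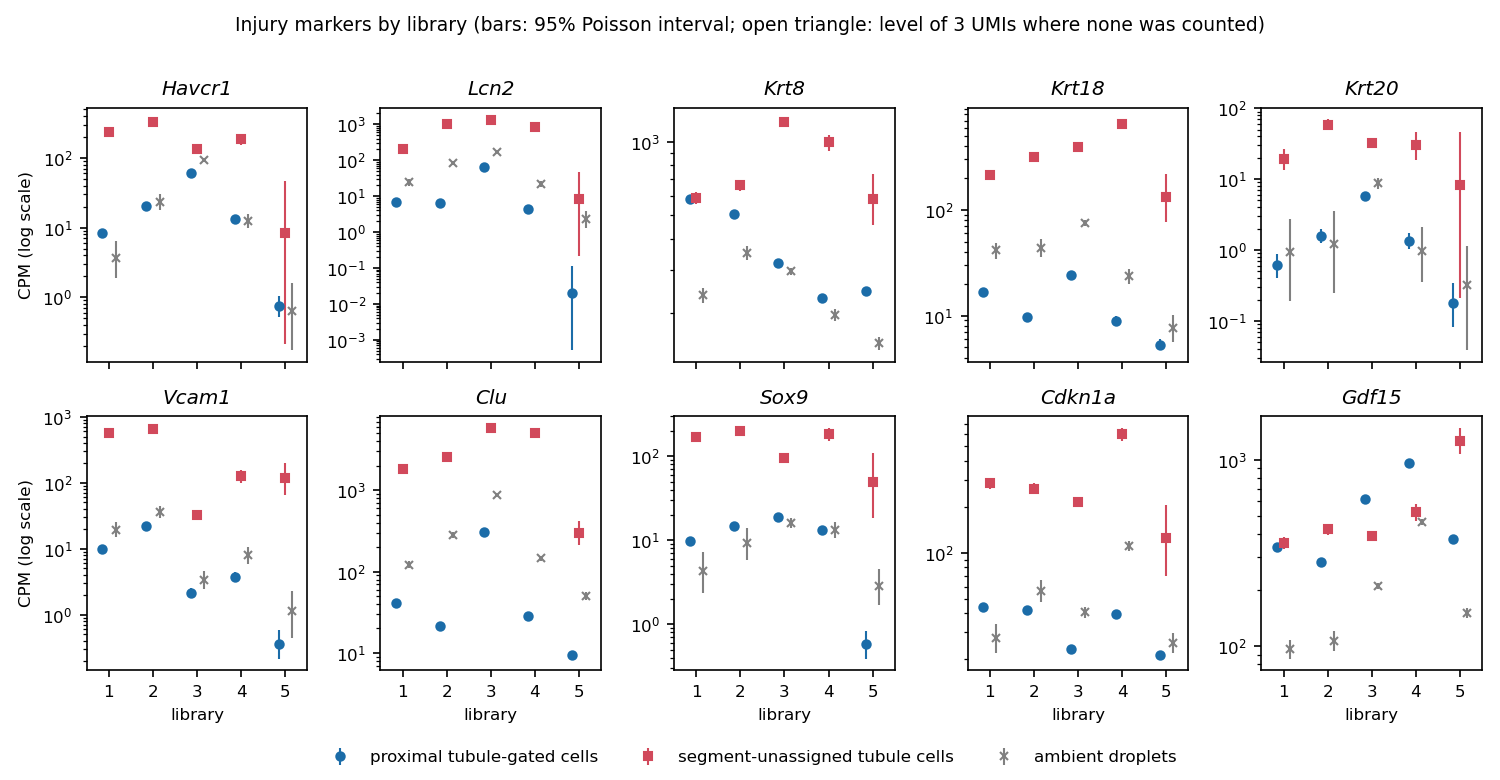
Level of each gene (panels, CPM on a log axis) in libraries 1 to 5, for proximal tubule-gated cells (circles), segment-unassigned tubule cells (squares) and ambient droplets (crosses), with 95% Poisson intervals. Segment-unassigned cells lie above ambient for every gene in every library, while in proximal tubule-gated cells Lcn2, Krt18, Vcam1 and Clu lie below it throughout.

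Segment-unassigned tubule cells held most of the markers at far higher levels than proximal tubule-gated cells. For 9 of the 10 genes the difference was at least 2-fold, beside 22.6% of the 9174 genes compared at 10 CPM or more in either class (Krt20 and Vcam1 only in segment-unassigned cells), and these 9 were higher in 5 of 5 libraries, Krt8 in library 1 by a log2 ratio of 0.01 alone. The log2 ratio of the pooled CPM was 5.66 for Lcn2 (95% interval 5.61 to 5.71), 5.41 for Clu, 5.14 for Vcam1, 4.69 for Krt18, 3.98 for Krt20, 3.47 for Sox9, 3.01 for Havcr1 (2.94 to 3.08), 2.98 for Cdkn1a and 1.37 for Krt8. Gdf15 was at -0.34 (-0.38 to -0.30), higher in 3 and lower in 2 of the 5 libraries. Distal convoluted and connecting tubule-gated cells were also above proximal tubule-gated cells for Lcn2 (698 CPM), Clu (6400), Krt8 (416), Krt18 (149), Sox9 (105) and Cdkn1a (172). They were below them for Havcr1 (3.25 CPM), Krt20 (0.650) and Vcam1 (1.95). The part of tubule segment in the ratios of the 10 genes was not tested. Library 3 held 837 of the 1349 cells, and without it 8 of the 10 genes passed 2-fold, with the ratio of Krt8 at 0.79. Without library 3 the ratio was 4.63 for Havcr1, 7.2 for Lcn2, 6.70 for Clu, 5.84 for Vcam1, 5.36 for Krt20 and 4.24 for Sox9. By library, the ratio of Havcr1 was 4.83, 4.03, 1.14, 3.81 and 3.48, lowest in library 3. In library 5 the segment-unassigned values of Havcr1, Lcn2 and Krt20 were 1 UMI each, from 24 cells.

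The libraries differed in which marker these cells carried. Vcam1 stood at 556, 648, 32.2, 125 and 117 CPM in libraries 1 to 5, so libraries 1 and 2 were far above library 3. Lcn2 went the other way, at 201, 1020.3, 1337, 841 and 8.34 CPM, and Clu likewise, at 1845, 2557, 5820, 5067 and 300.2 CPM. Havcr1 was at 235, 333, 132, 185 and 8.34 CPM. Sox9 (169.7, 198, 95.6, 184 and 50.04 CPM) and Cdkn1a (286, 264, 216, 602 and 125 CPM) varied less. Krt18 was at 215, 316, 393, 654 and 133 CPM, Krt20 at 19.2, 59.0, 32.4, 30.4 and 8.34 CPM, Krt8 at 589, 663, 1204, 991 and 584 CPM, and Gdf15 at 358, 422, 391, 524 and 1268 CPM. In library 5 the values rest on 24 cells, and 8.34 CPM is 1 UMI.

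The share of cells with a UMI was also compared at equal depth. After every cell was thinned to 1000 UMIs, 1303 segment-unassigned, 40285 proximal tubule-gated and 1157 T and NK-gated cells were deep enough, and 46, 5769 and 81 were too shallow. Clu was found in 59.9% (57.2 to 62.6%), 6.78% and 6.66% of them. The last 2 classes drew on the libraries in unlike shares. Within libraries, proximal Clu was at 41.0 CPM against 23.6 CPM in T and NK-gated cells of library 1. It was at 21.2 against 30.5 CPM in library 2, where the intervals overlapped, and at 311 against 1441 CPM in library 3. That T and NK-gated level was itself above ambient Clu in library 3 (876 CPM). Monocyte and macrophage-gated (245 CPM) and endothelial-gated cells (247 CPM) of library 3 were below the proximal level. B and plasma-gated (443 CPM) and neutrophil-gated cells (606 CPM) of that library were above it. Lcn2 was found in 32.9%, 1.72% and 1.12%, and Vcam1 in 9.29%, 0.477% and 0.432%. In CPM, proximal Vcam1 was at 9.91 against 4.97 in T and NK-gated cells of library 1 and at 22.0 against 4.92 in library 2, but at 2.14 against 5.00 in library 3, from 4, 5 and 2 lymphocyte UMIs, and ambient Vcam1 was above the proximal level in each. Havcr1 was found in 7.14%, 2.06% and 0.519%, and Sox9 in 10.7%, 0.953% and 0.0864%. In library 3, which held 813 of the 1303 segment-unassigned cells, the Havcr1 share was 6.89% (5.24 to 8.85%) against 5.10% (4.71 to 5.504%) in proximal tubule-gated cells, and these intervals overlap. The Sox9 share there was 8.12% against 1.57%. Before thinning, Havcr1 was found in 19.4%, 7.42% and 1.13% of cells and Sox9 in 35.6%, 3.29% and 0.162%, at median depths of 6470, 5082 and 1715 UMIs. Krt8 was found in 45.7%, 22.4% and 2.85% of thinned cells and Gdf15 in 19.1%, 22.9% and 2.07%.

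The level of proximal markers themselves varied among proximal tubule-gated cells, and the injury markers were higher where it was lower. The gated cells were divided into 5 bands by their summed proximal markers, from 0.25 to 0.5 times up to those well above the median level of the most complete proximal cells. Of the 10 genes, 8 were at least 4-fold higher in the lowest than in the highest band, beside 3.54% of the 8075 genes compared at 10 CPM or more in either band. Havcr1, Lcn2, Krt18, Krt20, Vcam1 and Sox9 reached 10 CPM only in the lowest band, so the count is a description. Havcr1 stood at 109.7, 48.9, 22.3, 6.38 and 2.17 CPM from the lowest to the highest band, a log2 ratio of 5.66. Sox9 stood at 58.3, 22.8, 9.51, 4.26 and 1.96 CPM (4.89) and Lcn2 at 111, 42.8, 12.2, 4.32 and 2.51 CPM (5.47). Clu fell from 554 to 14.9 CPM (log2 ratio 5.22), Krt20 from 10.1 to 0.431 CPM (4.55), Vcam1 from 36.4 to 2.22 CPM (4.04), Krt18 from 49.8 to 5.92 CPM (3.07) and Cdkn1a from 77.6 to 18.0 CPM (2.11). Gdf15 (1.38) and Krt8 (0.52) had the flattest gradients.

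Library 3 was unevenly spread over the bands, with 27.0% of its proximal tubule-gated cells in the lowest band and 2.08% in the highest. The other libraries had 2.46% to 6.27% of theirs in the lowest band. Median depth was 2685.5 UMIs in the lowest band and 5417 in the highest, and its part in the gradient was not tested. Within each library, the log2 ratio of lowest to highest band for Havcr1 was 6.39, 6.40, 2.19, 5.5 and 6.24 in libraries 1 to 5. For Sox9 it was 6.43, 5.89, 3.38, 5.04 and 7.70, and for Vcam1 it was 5.72, 5.18, 0.94, 6.47 and 4.98. Lcn2 (4.99, 2.33, 2.73 and 1.96 in libraries 1 to 4) and Clu (4.85, 3.65, 2.16, 3.24 and 3.84 in libraries 1 to 5) had weaker gradients within each of these libraries than in the pool. In library 3, Krt20 (0.75), Vcam1 (0.94), Cdkn1a (0.95), Gdf15 (1.75) and Krt8 (0.51) fell short of 4-fold. The gradient of Havcr1, Krt20, Vcam1, Clu, Sox9 and Cdkn1a was flattest in library 3, where the highest band holds 293 cells and Havcr1 in the lowest band (102 CPM) was close to the ambient level (93.1 CPM).

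Within the lowest band, libraries differed by gene. Mean proximal-marker levels there were 0.389 to 0.416 times the reference level in the 5 libraries. In this band, Havcr1 was at 121, 163, 102, 149.95 and 11.8 CPM in libraries 1 to 5, so libraries 1 to 4 lay within 2-fold of each other. Vcam1 was at 137, 196, 4.32, 76.3 and 7.39 CPM there, and Cdkn1a at 252, 127, 43.3, 290.3 and 75.4 CPM. Cdkn1a was lowest in library 3. Vcam1 was low in libraries 3 and 5, whose intervals overlap (3.36 to 5.47 and 2.40 to 17.3 CPM). Lcn2 was at 94.4, 13.1, 139, 8.77 and 1.48 CPM and Clu at 472, 119, 675, 133 and 60.6 CPM, highest in libraries 1 and 3. Ambient Lcn2 was above this band in libraries 2 to 5 (84.5, 168.5, 22.0 and 2.38 CPM) and below it in library 1. Ambient Clu was above it in libraries 2 to 4 (282, 876 and 145 CPM) and below it in libraries 1 and 5.

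**Figure D3:**
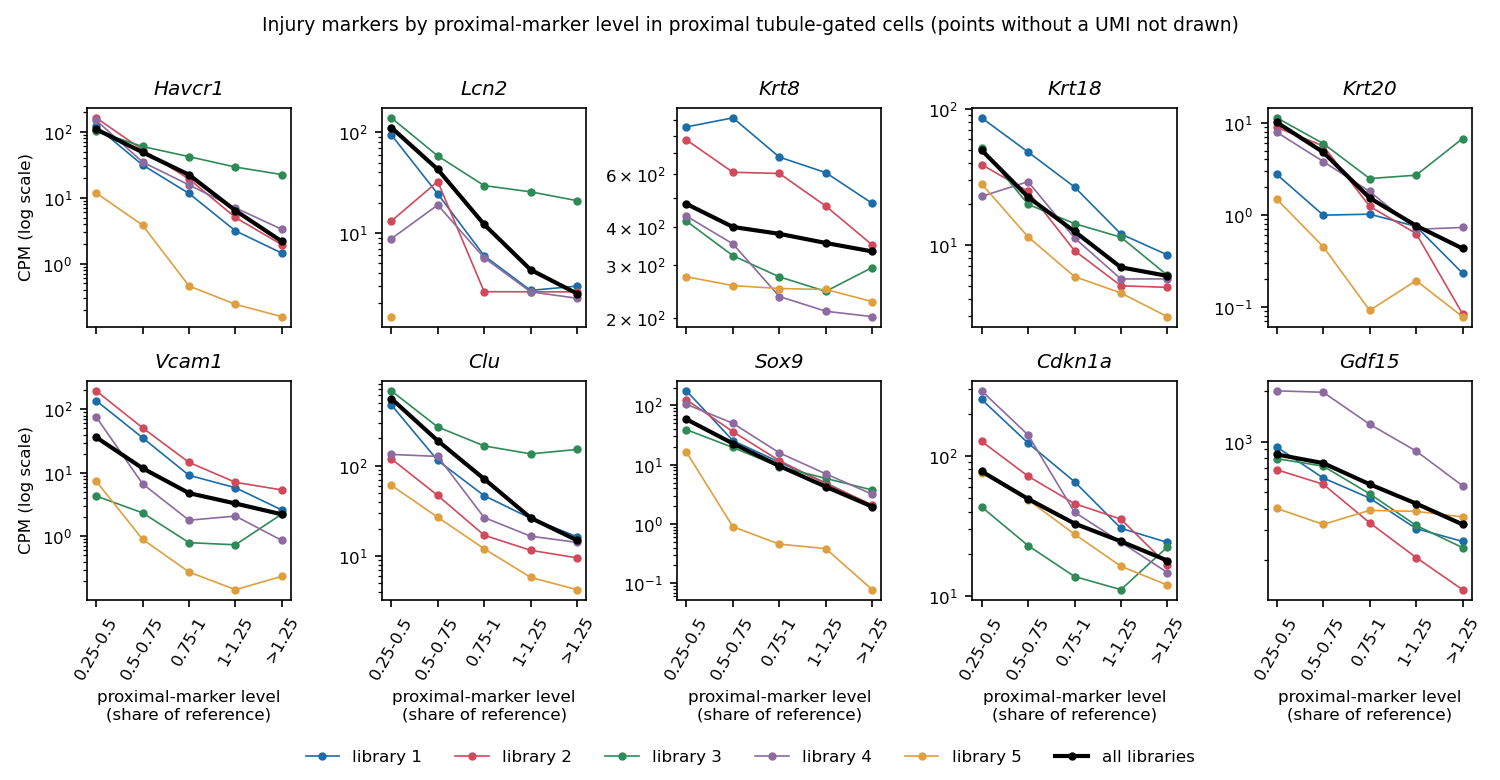
Level of each gene (panels, CPM on a log axis) in proximal tubule-gated cells by band of summed proximal-marker level (share of the reference level), for each library (coloured lines) and all libraries (black). Most lines fall from left to right, as for Havcr1 from 109.7 to 2.17 CPM in all libraries, while the black lines of Krt8 and Gdf15 are the flattest and library 5 is lowest for Havcr1 and Sox9.

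Within the tubule classes beyond the proximal tubule, Lcn2 and Clu also differed between libraries. In thick ascending limb-gated cells Lcn2 was at 1068, 1844, 3339, 2006 and 50.6 CPM in libraries 1 to 5, and Clu was at 2990, 3364, 7256, 3013 and 152 CPM. Library 5 was the lowest for both, as it was in proximal tubule-gated and segment-unassigned cells. Krt8 followed with 836, 604, 1054, 743.5 and 243 CPM, while Krt18, at 314, 195, 129, 134 and 146 CPM, was not lowest in library 5. Havcr1 and Vcam1 stayed at or under 24.6 and 4.28 CPM in every library of this segment. Among proximal cells gated further by segment, Krt18 was higher in S1-gated than in S3-gated cells in 5 of 5 libraries (35.1 against 8.86 CPM in library 1 and 16.9 against 1.57 CPM in library 5), and Sox9 was higher in 4 of 5.

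Other genes with known roles in tubule injury were taken from lists of 26 injury genes, 15 failed-repair genes, 12 p53 targets and 6 cell-cycle genes, all chosen with earlier results of these data known. In segment-unassigned against proximal tubule-gated cells, 24 of 26 injury genes were at least 2-fold higher, beside 22.6% of all genes compared, with a median log2 ratio of 4.47 against 0.35 for all genes compared. The listed genes were not compared with thick ascending limb-gated, collecting duct principal-gated or urothelium-gated cells. The part of tubule segment in their ratios was not tested. The largest were Timp2, a metalloproteinase inhibitor (6.01), the intermediate filament Vim (5.96), the annexin Anxa1 (5.95) and the surface glycoprotein Cd24a (5.52). All 26 reached the 10 CPM required in either class, 8 of them only in segment-unassigned cells, Timp2 and Anxa1 among these. Hmox1, the haem-degrading enzyme, was at -0.61 and Myc at 0.22. Of the failed-repair genes, 14 of 15 were at least 2-fold higher, again beside 22.6% (median 3.24) and with 8 at 10 CPM only in segment-unassigned cells, led by the scaffold protein Akap12 (6.44), Tgfb2 (6.22), the monocyte chemoattractant Ccl2 (5.00) and Tnfaip2 (4.84). Plau (0.83) and Cxcl1 (1.64) had the smallest ratios. In library 3 alone, the ratios of Cxcl1 (-0.51) and Icam1 (-0.18) were below 0, and in the other libraries they were positive.

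Of the 11 p53 targets at 10 CPM or more, 2 were at least 2-fold higher, a share near the 22.6% of all genes, and the median of the 11 was 0.46. The 2 were Phlda3 (3.10) and Btg2 (1.22), followed by Bax (0.92) and Fas (0.84). Sesn2 was at -0.45 and Ccng1 at -0.02. Phlda3 and Fas reached 10 CPM only in segment-unassigned cells, and Eda2r (3.07) reached it in neither class. The 6 cell-cycle genes had pooled log2 ratios of 1.03 (Mki67) to 1.55 (Ccnb1) and differed widely between libraries. Ccnb1 and Ccna2 reached 10 CPM in neither class, and Cdk1 and Birc5 reached it only in segment-unassigned cells. In libraries 1 to 4, Mki67 was at 0.54, 3.50, -0.26 and 0.98 and Top2a at 1.46, 4.58, -0.68 and 1.09. Library 2 was thus the highest and library 3 the lowest for both. Along the bands of proximal-marker level, Mki67 was at 65.2 CPM in the lowest and at 0.990 CPM in the highest.

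**Figure D4:**
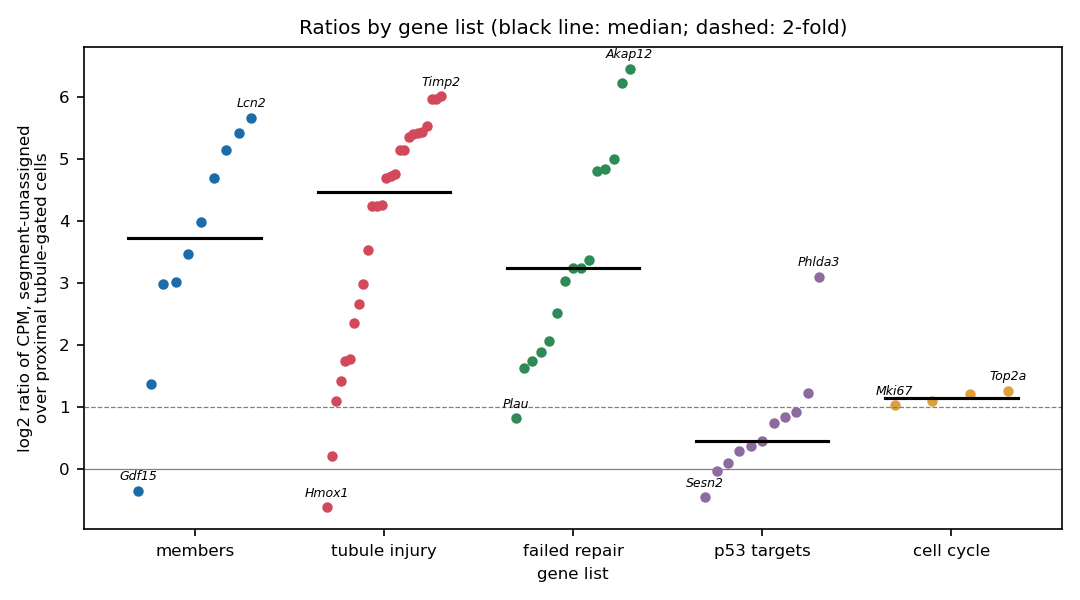
Log2 ratio of pooled CPM in segment-unassigned over proximal tubule-gated cells for each gene at 10 CPM or more in either class (points, sorted within a list), by gene list. Black lines are list medians and the dashed line is 2-fold. Injury and failed-repair genes lie mostly above the dashed line (medians 4.47 and 3.24), and p53 targets mostly below it (median 0.46).

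The markers were next compared within single cells. In proximal tubule-gated cells thinned to 1000 UMIs, 34 of the 45 gene pairs were expected together in at least 5 cells from the product of their shares in each library. Of these, 30 were found together more often than that product, with a median ratio of 1.42, and 6 at least 2-fold more often. Pairs of other genes were not counted, so nothing particular to these markers is read from these numbers. Among the 34 pairs, Havcr1 and Sox9 led, with 48 cells against 11.7 expected (4.09), at 11.1 in library 2 and 2.08 in library 3, with no value elsewhere. Pairs expected in fewer than 5 cells ran from 0.36 (Lcn2 and Krt20) to 7.60 (Vcam1 and Sox9, 14 cells against 1.84). Of these, Havcr1 and Vcam1 stood at 6.90 (19 against 2.75). Lcn2 and Clu were found together in 331 cells against 115.5 (2.87) and Lcn2 and Krt18 in 40 against 15.4 (2.6). Both of these pairs had a value in library 3 alone (2.71 and 2.46). Sox9 and Cdkn1a stood at a ratio of 2.48, Vcam1 and Clu at 2.32 and Krt18 and Clu at 2.12. Ambient Lcn2, Clu, Krt18 and Vcam1 were above the proximal tubule-gated levels in every library, and the part of ambient RNA in these pairs was not tested. Havcr1 stood apart from the Lcn2 and Clu pair, at 0.97 with Lcn2 and 0.93 with Clu. The expected numbers were taken within libraries and not within segments or bands of proximal-marker level. Without library 3, 3 pairs passed 2-fold.

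In segment-unassigned cells some pairs were found together less often than that product. Lcn2 and Clu were found together in 376 cells against 277 expected (1.36), and Havcr1 and Vcam1 in 17 against 9.31 (1.83). Across these sets the ratios were below 1, at 0.41 for Lcn2 and Vcam1 (9 cells against 21.8), 0.56 for Havcr1 and Lcn2 (17 against 30.2), 0.56 for Havcr1 and Clu (31 against 55.4) and 0.79 for Vcam1 and Clu, a pair that had been above 1 in proximal tubule-gated cells. Pairs with other genes lay on both sides of 1, such as Krt20 and Clu at 0.27 (3 against 11.1), Krt18 and Vcam1 at 0.58 and Havcr1 and Gdf15 at 1.87. Havcr1 and Sox9, which led in proximal tubule-gated cells among pairs with enough expected cells, were at 0.89 here (9 against 10.1). Havcr1 and Clu were below 1 in the libraries 1, 2 and 3 that hold most cells (0.45, 0.46 and 0.63), as were Lcn2 and Vcam1 (0.27, 0.45 and 0.45). Havcr1 and Vcam1 were above 1 in libraries 1 and 2 (2.15 and 1.97), and in library 3 no such cell was counted where 1.38 were expected.

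The remaining segment markers of these cells differed with the marker they carried. The 93 segment-unassigned cells with a Havcr1 UMI held proximal markers at 17.9 of 10000 UMIs and thick ascending limb markers at 2.33, against 10.8 and 9.26 in the 1210 cells without one. In the 121 cells with a Vcam1 UMI, thick ascending limb markers were at 0.885, against 9.85 in the others, and proximal markers at 9.99 against 11.7, though within libraries 2 and 3 the proximal markers were higher in the cells with Vcam1 (8.14 against 5.79 and 15.1 against 14.0). In the 429 cells with an Lcn2 UMI, thick ascending limb markers were at 21.4, against 3.99 in the others, and proximal markers at 8.93 against 12.4. The pooled proximal levels with and without Vcam1 or Lcn2 lay within those of leukocyte classes (8.70 in T and NK-gated and 14.0 in neutrophil-gated cells). The 781 cells with a Clu UMI also held more thick ascending limb (13.6 against 2.22) and distal markers (8.34 against 1.85) than those without. The sets drew on different libraries, with 48, 51 and 20 of the 121 cells with Vcam1 and 15, 37 and 363 of the 429 cells with Lcn2 from libraries 1 to 3. Within libraries 1, 2 and 3, thick ascending limb markers were at 0.223, 0.630 and 3.85 in cells with Vcam1 against 6.30, 5.72 and 12.0 in those without. In cells with Lcn2 they were at 28.4, 11.4 and 22.3 against 2.20, 2.69 and 5.504. The direction of the thick ascending limb markers was thus the same in each of these 3 libraries for both genes, whereas distal markers in cells with Lcn2 were not higher in library 2 (4.42 against 4.67). These sets were formed from the measured UMIs and are a description.

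**Figure D5:**
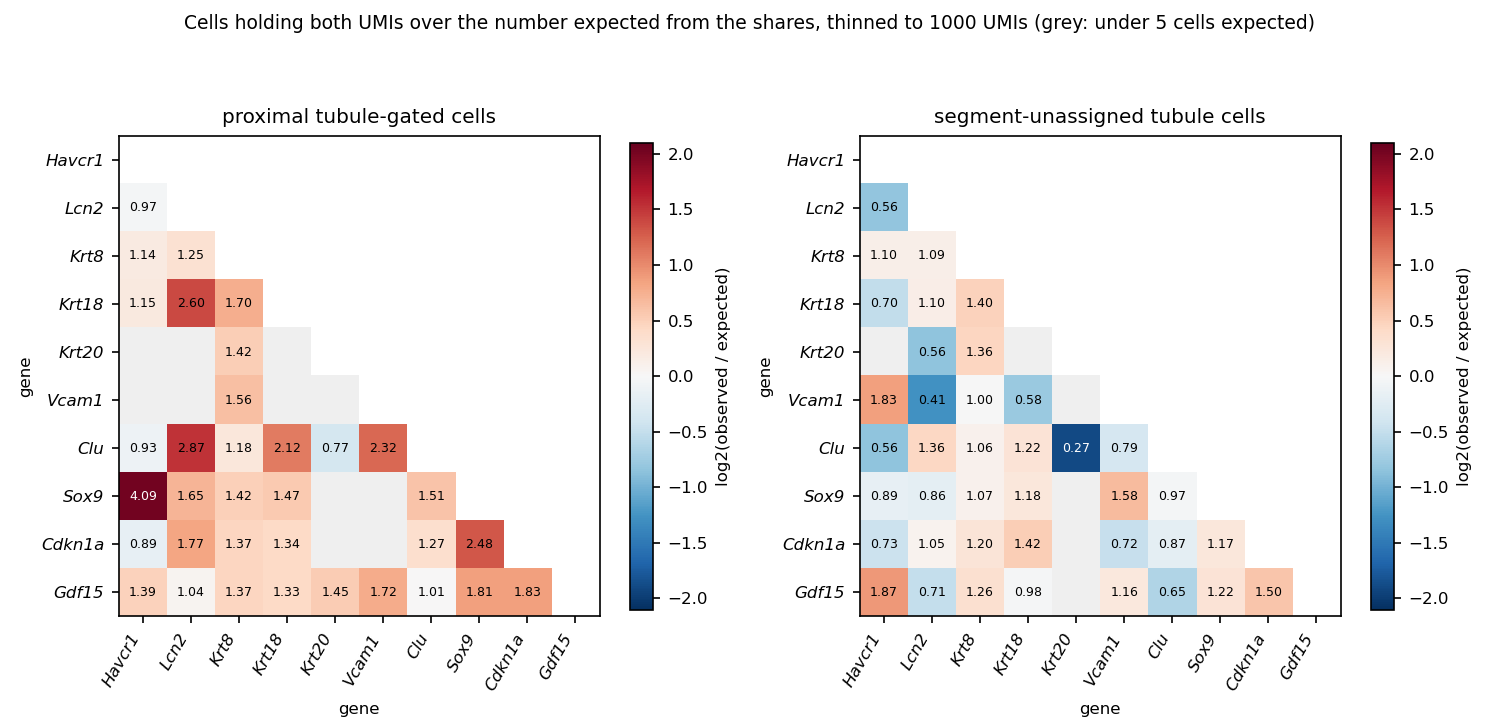
Number of cells with UMIs of both genes over the number expected from the product of their shares within libraries, printed for each pair in proximal tubule-gated cells (left) and segment-unassigned tubule cells (right), both thinned to 1000 UMIs; red is above 1, blue below 1 and grey marks pairs with under 5 expected cells. Havcr1 with Sox9 (4.09) and Lcn2 with Clu (2.87) stand out on the left, and the blue fields of Havcr1 or Vcam1 with Lcn2 and Clu on the right.

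The genes nearest to each marker were found by Pearson's r of log2(CPM + 1) over 35 units, each a class in a library with at least 50 cells, among 7528 genes. The units share libraries and depth, so r is a description. Havcr1 was nearest to Serpina10 (0.87), Cp (0.82) and 2200002D01Rik (0.81), and Vcam1 to the intermediate filament Nes (0.87), Itga9 (0.85) and Nrp2 (0.84). Sox9 was nearest to Hcfc1r1 (0.89), Hoxd9 (0.89) and its relative Sox4 (0.88). Krt20 was nearest to the basal keratins Krt15 (0.84) and Krt5 (0.82) and to Ankrd1 (0.81), whereas Krt8 was nearest to Mpzl2, Ptprf and Lad1 (0.92, 0.92 and 0.91) and Krt18 to Wfdc2, Ehf and Dsp (all 0.92). Clu was nearest to the tight-junction gene Cldn7 (0.93), Mal2 (0.91) and Krt7 (0.91). Among the genes nearest to Lcn2 were Eif4ebp1 (0.77) and S100a11 (0.76). Cdkn1a was nearest to Ptpn12, Fmnl3 and Ski (0.83, 0.83 and 0.82) and Gdf15 to Cd63, Vps29 and Nrg1 (0.83, 0.82 and 0.82).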

How the data were processed

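Dissociated kidneys were profiled with 10x Chromium 3′ chemistry (version 3.1 kit). Per the submitters' processing notes and the study's methods, the authors used Cell Ranger 6.0 and the mm10 genome, and deposited 1 matrix of raw UMI counts over 5 libraries (82426945 to 139382799 UMIs each) without cell calling. The number of matrices in the study's methods differs from the 5 libraries seen here. The counts were used as deposited.

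Cells were called per library with Cell Ranger's 2 steps (10000 simulations, adjusted p of at most 0.01), and 70187 barcodes passed. Those with fewer than 200 genes or more than 25% mitochondrial counts were left out, which left 57540 cells. In data simulated from library 3, the calling kept all deep cells and most shallow ones. Ambient levels were taken from barcodes at ranks 45000 to 90000. Of 57189 distinct cell barcodes, 350 (0.612%) occurred in more than 1 library.

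A cell passed a gate with at least 3 detected markers of the list and a summed level of at least 0.25 times a reference level. The reference was the median of cells with at least 3 to 6 markers detected, depending on the length of the list. Cells passing several gates (1748) were left out as mixed. Cells passing none were segment-unassigned with at least 2 general tubule markers detected, and otherwise unclassified (2554) and not ranked. No doublet caller was run, so doublets within a class are not seen. Within 20% of the proximal cut lay 1385 cells (677 gated, 153 segment-unassigned). Markers were listed first, and the gate rule was set after values were seen. The 10 genes and all lists were chosen with earlier results of these data known. Named genes were all 10 in every class, the 4 largest and 2 smallest ratios of the injury, failed-repair and p53 lists at 10 CPM or more, and 3 nearest genes per marker, of which 1 is not reported here. Other cell-cycle genes were named after their values were seen.

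Ratios are log2 of pooled CPM with exact conditional binomial intervals, and shares have Clopper-Pearson intervals. Counts under 3 UMIs were raised to 3 UMIs for the library spread and for the counts of genes past a fold. With each condition in 1 sample and libraries not tied to conditions, no test was run. Of the genes, Krt8 has an annotated pseudogene, and reads shared with it may be lost. Alternatives covered calling, mitochondrial limit, gates, mixed cells, averaging, ambient RNA, thinning and each library left out. Python 3.11.15, numpy 2.4.6 and scipy 1.17.1 were used, and the statistics were tested on simulated data.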

Additional observations from a re-analysis of the deposited data

Results flagged for a closer look

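Signal of all 10 genes was also found in data that the comparisons above did not use, the 12138 called barcodes with at least 200 genes and more than 25% mitochondrial counts. Havcr1 was there at 9.21 CPM, Lcn2 at 53.1 CPM, Clu at 419 CPM, Sox9 at 6.21 CPM and Vcam1 at 3.48 CPM. Krt8 was at 129.5 CPM, Krt18 at 14.0 CPM, Krt20 at 1.38 CPM, Cdkn1a at 15.0 CPM and Gdf15 at 108 CPM. Each was above the level that 3 UMIs would make (0.0553 CPM). With mitochondrial UMIs left out of the totals, all 10 genes were lower in these barcodes than in kept cells. No share of all genes was taken for either comparison, and these barcodes were not sorted into classes. Nothing particular to the 10 genes is therefore read from them. Clu was the closest, at 715 against 764 CPM, and Havcr1 was at 15.7 against 33.3 CPM. Vcam1 (5.94 against 21.9 CPM), Krt18 (23.9 against 86.4), Cdkn1a (25.5 against 90.6) and Gdf15 (185 against 539) were further apart.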

How the results depend on the processing

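No paired analysis was possible because each condition is 1 sample and the labels give no replicate that groups share. The counts of genes spread at least 4-fold, of genes and listed companions at least 2-fold higher in segment-unassigned cells and of genes highest in a tubule class stayed within 1.5 times their values under every alternative on calling, mitochondrial limit, gates, mixed cells, averaging and ambient RNA. The count of pairs found together at least 2-fold above expectation, 6 as reported, was 3 with gates 2 times as strict and 11 without thinning. Leaving out each library in turn gave 4 to 9 genes highest in a tubule class (9 without library 3), 5 to 7 spread genes (5 without library 5), 8 to 9 genes and 38 to 47 companions at least 2-fold higher, and 3 to 6 pairs (3 without library 3). The 9 without library 3 rest in part on urothelium-gated cells being too few there to be ranked. The log2 ratio of Gdf15 turned from -0.34 to 0.47 with gates 2 times as strict and to 0.20 as a mean over libraries, and the cause was not tested. No other value of the 10 ratios changed sign under these alternatives, though 90 moved by more than counting error, and Lcn2 ranged from 4.95 to 7.2 and Havcr1 from 2.66 to 4.63. Calling by filters alone gave 128295 cells and a limit of 10% mitochondrial counts gave 27942. Depth limits Krt20, Vcam1 and Sox9 most, and classes under 50 cells were not ranked.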
